A study of Mus musculus with 16 samples.

Results

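Most H3K4me3 peaks are short, but a minority spread over several kilobases around a start site. The 711 regions described here are of that second kind: stretches of the genome of mouse hematopoietic stem cells whose merged H3K4me3 peaks spanned at least 4000 bp and met no H3K27me3 island of 5 libraries. They were chosen from the peak positions themselves. Peaks of the 4 H3K4me3 libraries were merged where they shared 1 bp or touched, which gave 20660 regions, of which 14489 were touched by peaks of all 4 libraries. Of these, 775 were 4000 bp or wider, 64 of the 775 were touched by an H3K27me3 island of at least 1 of 5 libraries, and the other 711 are called domains below. The 11065 narrower regions that also lay under peaks of all 4 libraries and under none of the 5 H3K27me3 lists are called narrow regions and serve for comparison.

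The study profiled histone methylation by chromatin immunoprecipitation and sequencing (ChIP-seq) to ask how the stem cell epigenome differs with age. The old mice were 24 months of age and the young mice 4 months, and per the series' design text both were wild type, of strain C57BL/6. At both ages the cells were primary bone marrow stem cells sorted by the SP-KSL-CD150+ gate, which joins efflux of a dye with surface markers of primitive cells. H3K4me3 was measured in 2 old and 2 young libraries (replicates 7 and 8 of each age), H3K27me3 in 3 old and 3 young (replicates 1 to 3), and H3K36me3 in 3 old and 3 young (replicates 4 to 6). The labels name the samples technical replicates of numbered biological replicates and do not tie them to animals. The p-values below therefore reflect how far these samples spread, and part of that may be technical. Each title also carries a number from 16 to 21 that the labels do not explain, and it is called the title number here.

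H3K4me3 is laid down around transcription start sites by enzymes of the SET1 and MLL families, and a very broad block of it is a known feature of genes that define the identity of a cell. H3K27me3 is the mark of Polycomb repression, and its presence together with H3K4me3 at developmental genes is called bivalent. H3K36me3 is laid down by SETD2 behind elongating RNA polymerase, so it covers the bodies of transcribed genes and is usually low at their start sites. Regions are given by position on the mouse build mm9, since no annotation of that build was used here, and no gene is named. For the same reason the label of the sorted cells was not checked against marker genes.

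The H3K4me3 lists held 16258 to 19923 peaks over 26.9 to 32.5 Mb. Of the length of an H3K4me3 list, a median of 78.5 to 91.8% lay under another list of the mark. A pair of libraries, both with title number 16 and from young mice, stood apart. In H3K27me3 young replicate 1 only 3.36 to 5.31% of the length lay under any other H3K27me3 list, against medians of 43.4 to 55.2% in the other 5 lists, and the choice of domains did not use it. H3K36me3 young replicate 4 held 6399 peaks over 5.90 Mb, against 39362 to 84437 peaks over 41.6 to 138 Mb in the other 5 lists. Results that rest on it are given with and without it. The files hold peak positions and scores but no reads, so the depth behind each list is unknown and no interval for counting error can be given. A list from a deeper or better enriched library can have longer peaks, and the part of this in any difference between libraries was not tested.

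The domains ranged from 4001 to 18883 bp of merged width, with a median of 4772 bp and quartiles of 4318.5 and 5569.5 bp. The 10th percentile was 4121 bp and the 90th 6689 bp, so most lay close to the lower limit. Narrow regions had a median of 2050 bp. At the limit the choice is one of degree. The domain chr7:52381330-52385330, 4001 bp wide, had 2976 and 3913 bp under peaks of old replicates 7 and 8, against 3664 and 2938 bp in young replicates 7 and 8. Just outside, chr1:51345374-51349372, 3999 bp wide, had 3289 and 3999 bp in the old libraries, against 2400 and 1695 bp in the young. The next domains inside, chr14:51707631-51711634 and chr2:75495939-75499942, were both 4004 bp wide. The next regions outside, chr11:69732430-69736426 and chr4:43589040-43593036, were both 3997 bp wide.

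Width was a property that the libraries shared only in part. The core of a domain, the bases under peaks of all 4 libraries, made up a median of 76.9% of its width, and a median of 70.3% in narrow regions. The core alone reached 4000 bp in 251 of the 711 domains. A single library covered at least 4000 bp of 379 domains in old replicate 7 and of 578 in old replicate 8, against 464 in young replicate 7 and 360 in young replicate 8. All 4 libraries did so in 302 domains, and none of them in 76, where only the merged width passed. Domain edges differed by a median of 417.5 bp between the outermost and innermost library, and those of narrow regions by a median of 287 bp.

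The 12 widest domains lay on 7 chromosomes, 4 of them on chromosome 11. The widest, chr8:97499884-97518766, was covered over 16163 and 18434 bp in the old libraries, against 17092 and 16520 bp in the young. The young values lay between the old ones, and the region was broken into 7 and 3 peaks in the old libraries, against 4 and 3 in the young. The second, chr11:18906952-18922156, was a single unbroken peak in every library, of 14723 and 14876 bp in the old, against 15065 and 14399 bp in the young. Its core of 14399 bp was 94.7% of its width, the highest share among the 12, and the ages overlapped. The third, chr6:88141902-88155121, was covered over 12155 and 13014 bp in the old libraries, against 11677 and 10046 bp in the young, with both old values above both young ones.

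Of the other 9, chr19:43680437-43691998 was the steadiest in length, with 11059 and 11106 bp in the old libraries, against 11236 and 11414 bp in the young. Here both old values were the lower ones, by a mean of 242.5 bp. On the same chromosome chr19:5839433-5850368 had 10446 and 10932 bp in the old libraries, against 9427 and 8438 bp in the young. Both ages overlapped in chr5:143574989-143585853, chr11:120090777-120101499, chr11:96164253-96174845, chr11:23973635-23984165 and chr5:123585401-123595847, which were 10865 to 10447 bp wide. In the last of the 12, chr1:170353961-170363359, the old libraries covered 7411 and 9308 bp, against 7032 and 6173 bp in the young. Over the 12, both old values were above both young ones in 4 domains and below them in 1. Of all regions held by all 4 libraries, 12.6% had the first order and 16.2% the second. Of the domains of 7 kb or more, 35.3% had the first and 7.84% the second. The 12 were picked by merged width in the same 4 lists, so this count is a description. The largest gap was in chr15:67003822-67014014, described with the age differences.

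**Figure D1:**
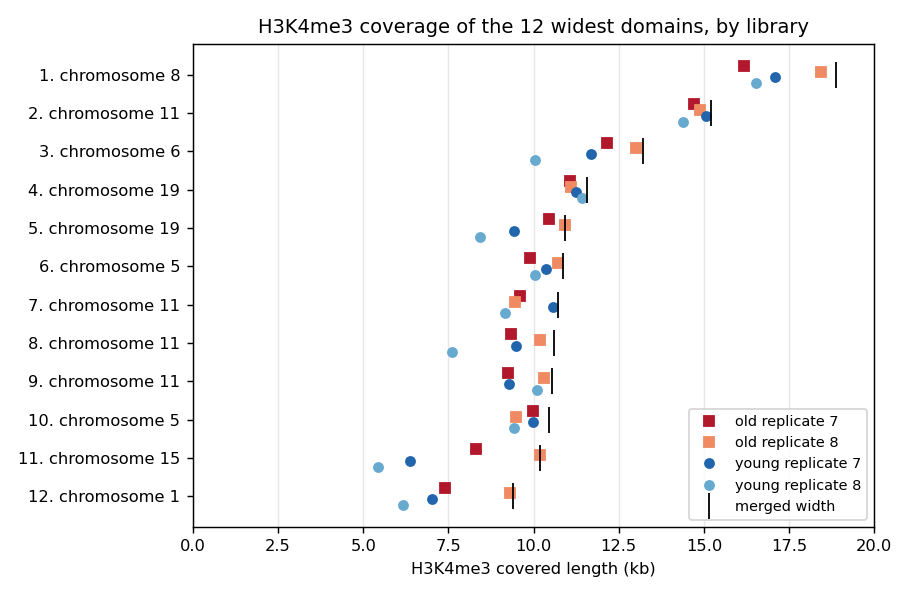
H3K4me3 covered length in kb (x axis) of the 12 widest domains, ordered by merged width from the top and named by rank and chromosome (y axis). Squares stand for old replicates 7 and 8, circles for young replicates 7 and 8, and black ticks for the merged width. In domain 4 the 4 libraries lie between 11059 and 11414 bp, and in domain 11 both old squares, at 8321 and 10193 bp, lie above both young circles.

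Domains were spread over all autosomes and the X chromosome. They made up 4.91% of the regions held by all 4 libraries. The share was highest on chromosome 11, with 74 domains or 6.37%, and close to that on chromosomes 10 and 19, at 6.36 and 6.35%. It was lowest on the X chromosome, with 13 domains or 2.77%, and on chromosome 2, with 34 or 2.94%. The Y chromosome had 4 regions held by all 4 libraries and no domain.

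Some domains were neighbours. Of the 711, 21 had another domain within 10 kb, as 11 pairs, 64 had one within 50 kb and 119 within 100 kb. Whether these counts are more or fewer than for other regions was not tested. The closest pair, chr11:96164253-96174845 and chr11:96174979-96182218, 10593 and 7240 bp wide, was parted by 133 bp. The next closest were chr6:52158104-52164404 and chr6:52165122-52169338, 717 bp apart, and chr6:134868980-134874577 and chr6:134875910-134880210, 1332 bp apart. On chromosome 11 a run of 3 domains at 69207611 to 69234452 gave 2 of the pairs. The median distance to the next H3K4me3 region held by all 4 libraries was 31299 bp for domains and 26976 bp for narrow regions.

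The score of an H3K4me3 peak, a value that the authors' caller gave and whose unit the sources used here do not state, did not rank the domains. The best peak of a domain reached 3100 in 99.0 to 99.3% of domains in each library, and in 71.9 to 72.9% of narrow regions. Many peaks stood at exactly 3100, and only 111 to 164 peaks of a list were above it. Domains held 2 and 0 of those peaks in the old libraries, against 0 and 2 in the young.

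Total H3K4me3 length in the domains did not separate the ages. It was 3.15 Mb in old replicate 7 and 3.51 Mb in old replicate 8, against 3.25 Mb in young replicate 7 and 3.06 Mb in young replicate 8. The means were 3.33 ± 0.26 Mb in old and 3.15 ± 0.14 Mb in young (SD, n = 2 each). One old value lay between the young ones and the other above both. The difference of 0.08 on the log2 scale was within the spread of the libraries (exact two-sided permutation test, p = 0.667, 0.8 after Benjamini-Hochberg adjustment over 6 tests of single values). With 2 libraries against 2 no such test can give a p below 0.333. Of the whole list's length the domains took 11.6 and 10.8% in old, against 11.0 and 11.4% in young. Within title number 18, the only number that H3K4me3 shares between ages, the total was lower in old, by -0.04 on the log2 scale.

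The median covered length of a domain was 4084 and 4560 bp in the old libraries, against 4278 and 4008 bp in the young. For narrow regions it was 1600 and 1829 bp in old, against 1825 and 1672 bp in young. Within a library, the median of the domains was 2.552 and 2.493 times that of the narrow regions in old, against 2.344 and 2.397 times in young. Both old ratios were above both young ones, by 0.09 on the log2 scale, and by 0.12 within title number 18. This is a description: the choice of domains used the widths in the same 4 lists and the ratio was added after the values had been seen, so its p, 1 of the 6, is not given.

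No domain passed the test of single regions. The test was limma on log2 of covered bp plus 200, over the 17307 regions that 2 or more libraries covered, and p was adjusted by Benjamini-Hochberg at 0.05. It called 0 of the 711 domains and 0% of all regions tested, with a smallest adjusted p of 0.348. At an unadjusted p under 0.05 there were 57 domains, 54 of them covered more in old, where 6.04% of all tested regions were at such a p and more covered in old, and 1.20% less. The median change of the domains was 0.05 on the log2 scale, against -0.02 for narrow regions and 0.01 over all regions tested. The fitted change was above 0 in 473 domains, or 66.5%, against 44.7% of narrow regions and 51.3% of all regions tested. Without old replicate 8 that share was 44.2% of domains, against 26.96% of narrow regions, and without old replicate 7 82.8%, against 63.8%. With 2 libraries an age the test had little power for single regions, so the lack of calls does not show that domains were alike between ages. With 1 library left out, the age with a single library being assumed to vary like the other, the test called 33 domains without old replicate 7, where 0.578% of all tested regions were called. It called 3 without old replicate 8 (0.0994% of all), 4 without young replicate 7 (0.355%) and 0 without young replicate 8 (0.0943%). The test used covered lengths in the same 4 lists whose merged widths chose the domains. In 118 domains only old replicate 8 covered at least 4000 bp, and in 37 only young replicate 7. The counts of domains above, at an adjusted or unadjusted p, are therefore a description. How far the choice of domains sets them, or their excess over all tested regions, was not tested. Without old replicate 8, the list with most peaks, the domain median was -0.02 and that of narrow regions -0.10, and without old replicate 7 they were 0.12 and 0.07. Within title number 18 the median was -0.05 for domains and -0.16 for narrow regions, and 35.2% of domains were longer in old, against 22.1% of narrow regions.

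Read by the order of the 4 values, 190 domains, or 26.7%, were covered more in both old libraries than in both young, where 12.6% of all regions held by all 4 libraries were. In 50 domains, or 7.03%, both old values were the lower ones, where 16.2% of all such regions had that order. The values of the remaining 471 domains overlapped between ages. In the narrow regions the shares were 10.9% and 17.2%, and in the 64 broad regions with H3K27me3 29.7% and 9.38%. The share with both old values higher was larger in each width class from 3 kb upward than in the one before it. Merged width joins the peaks of the same 4 lists, so a longer peak in 1 list can move a region to a wider class. The rise with width is therefore a description, and how far the classes themselves set it was not tested. Both old values were the higher ones in 7.09% of regions under 1 kb, 10.4% of those of 1 to 2 kb, 10.1% at 2 to 3 kb and 16.01% at 3 to 4 kb. Among the domains they were so in 24.6% at 4 to 5 kb, 28.8% at 5 to 7 kb and 35.3% at 7 kb or more.

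These shares describe 4 lists, and they moved with single libraries. With a library left out the measure changes too, as an order of fewer values is met more easily. With each library scaled to the same median over regions held by all 4, the shares of domains were 37.0% higher and 5.77% lower. All regions held by all 4 then gave 19.2% and 16.6%. With only peaks at or above the median score of their list they were 19.7% and 11.0% in domains, where all such regions gave 10.7% and 17.1%. Without old replicate 8 the remaining old library was above both young ones in 28.3% of domains and below both in 37.6%, where all regions gave 15.96% and 50.2%. Without old replicate 7 the shares were 65.4% and 8.58% in domains, where all regions gave 46.2% and 20.6%. Without young replicate 7 they were 54.3% and 11.5%, where all regions gave 37.6% and 23.8%, and without young replicate 8 33.3% and 28.4%, where all gave 20.2% and 42.7%. The merged width that chose the domains joins the peaks of all 4 lists, and old replicate 8 had the greatest length under peaks. Domains chosen by a core of 4000 bp, a measure from the same 4 lists, gave shares of 26.7% and 7.17% of 251. How far the choice of domains sets these shares was not tested.

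**Figure D2:**
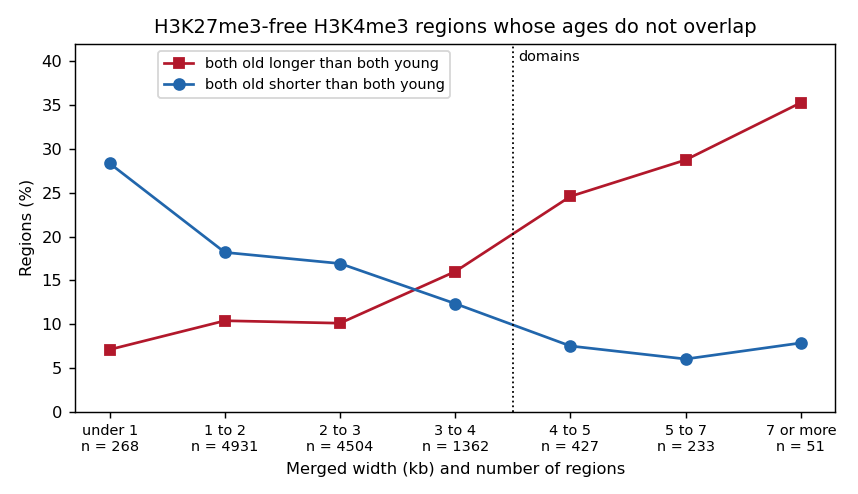
Share of H3K27me3-free H3K4me3 regions (y axis, percent) in which both old libraries covered more (squares) or less (circles) than both young libraries, by merged width in kb (x axis, with the number of regions), for regions held by all 4 libraries. The dotted line marks the 4 kb limit of the domains. Merged width joins the peaks of the same 4 lists whose covered lengths are compared. The share with both old values higher is 7.09% under 1 kb and 35.3% at 7 kb or more, and the share with both lower is 28.4% and 7.84%.

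The position of the edges had the same order. An edge is the outermost peak bound of a library within the merged region. Edges thus come from the same 4 lists as the covered lengths and the widths that chose the domains. Their shares are a description and not separate evidence. Of the 1422 edges of the domains, 339, or 23.8%, lay farther out in both old libraries than in both young, where 14.3% of all edges of regions held by all 4 libraries did. In 164, or 11.5%, both old edges lay farther in, where 17.7% of all edges did. Both edges lay farther out in old in 41 domains, or 5.77%, where 2.20% of all regions held by all 4 libraries had this, and in 7.81% of the broad regions with H3K27me3. Both lay farther in in 5 domains, or 0.703%, where 3.26% of all such regions had this, and in 4.69% of the broad regions with H3K27me3. In 118 domains only old replicate 8 covered at least 4000 bp, and in 37 only young replicate 7.

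Among the 190 domains in which both old values were the higher ones, the mean difference ran from 79 to 3349 bp, with a median of 677.5 bp. The largest was in chr15:67003822-67014014, 10193 bp wide, with 8321 and 10193 bp in the old libraries, against 6368 and 5448 bp in the young. The young peaks held its centre, and both old libraries had more on the left and on the right of it. The log2 difference was 0.63. The second was chrX:111587449-111591956, with 3276 and 4477 bp in the old libraries, against 1351 and 1250 bp in the young, a log2 difference of 1.43. Both young libraries had a single short peak at its left end, and the old peaks went on towards the right edge, unbroken in old replicate 8. No single library other than old replicate 8 covered 4000 bp of it, so the choice and the difference rest in part on the same values. Differences of single domains are therefore given here as a description, with no test.

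The third, chr19:4300883-4306679, had 4485 and 5592 bp in the old libraries, against 2409 and 3073 bp in the young. The fourth, chr10:61963127-61972080, had 7655 and 8294 bp in the old, against 6560 and 5293 bp in the young. The fifth, chr11:96174979-96182218, had 6500 and 7240 bp in the old, against 5566 and 4219 bp in the young. It is the right member of the pair parted by 133 bp.

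The 50 domains with both old values lower had smaller differences, from -69 to -1721 bp with a median of -335.5 bp. The largest was in chr6:136886003-136890694, with 2271 and 2630 bp in the old libraries, against 4221 and 4122 bp in the young. The log2 difference was -0.73. Each old library had a pair of peaks with a gap near the centre, which young replicate 7 covered with 1 peak. Young replicate 8 was itself broken into several peaks. On the left the old peaks began at 136887404 and 136887163, against 136886474 and 136886003 in the young. Next came chr19:44367195-44372700, with 2817 and 4165 bp in the old, against 4890 and 4735 bp in the young. In chr10:66647834-66653116 the old libraries covered 4036 and 4702 bp, against 5255 and 5083 bp in the young. The last 2 were chr11:115881925-115886242, with 3281 and 3242 bp in the old, against 4045 and 3974 bp in the young, and chr19:8796427-8800668, with 3069 and 3355 bp in the old, against 4148 and 3515 bp in the young.

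**Figure D3:**
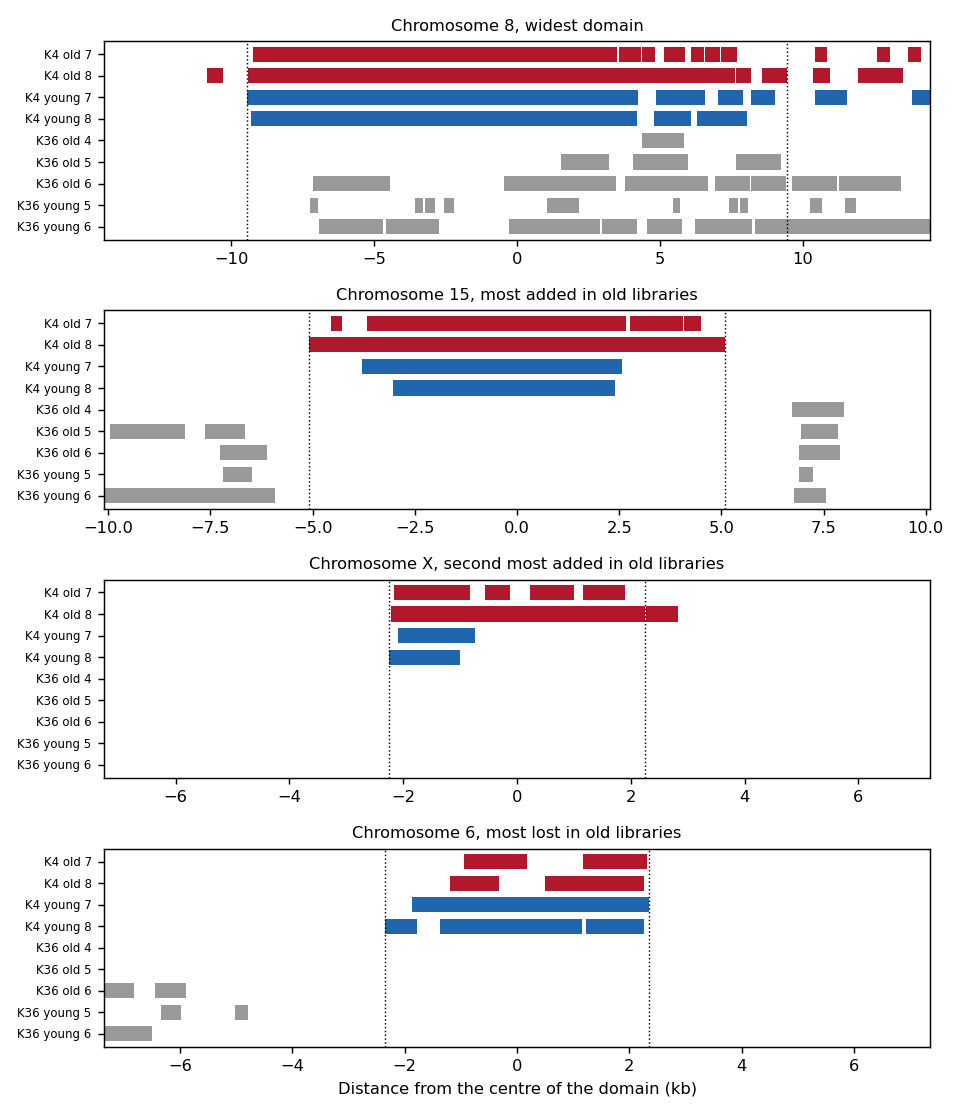
Peaks along 4 domains as bars against distance from the centre of the domain in kb (x axis): the widest, the first and second by added length in old libraries, and the first by lost length. Rows are H3K4me3 (K4) libraries, with old in red above young in blue, and 5 H3K36me3 (K36) libraries in grey, and dotted lines mark the merged edges. On chromosome X the young peaks cover 1351 and 1250 bp at the left end, while the old peaks cover 3276 and 4477 bp.

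Domains were also broken into peaks differently in each library. The mean number of peaks per domain was 1.51 in old replicate 7 and 1.26 in old replicate 8, against 1.21 and 1.28 in young replicates 7 and 8. A single peak held the domain in 435 and 554 cases in old, against 581 and 538 in young. The difference of 0.14 peaks was within the spread of the libraries (exact two-sided permutation test, p = 0.667, 0.8 after adjustment over 6 tests). Old replicate 7 was the only library with 2 or more peaks in 92 domains, and without it the difference was 0.015. When peaks of a library under 500 bp apart were joined first, the difference was -0.0063. A single peak in all 4 libraries was seen in 309 domains, and 28 had 2 or more peaks in all 4.

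H3K36me3 took no part in the choice of the domains. More of the domains than of the narrow regions held it, in each of the 6 libraries. A peak of H3K36me3 touched 11.8, 19.7 and 23.2% of domains in old replicates 4, 5 and 6, against 1.19, 3.11 and 3.43% of narrow regions in the same libraries. In young replicates 4, 5 and 6 it touched 1.13, 21.8 and 33.2% of domains, against 0.045, 1.97 and 6.34% of narrow regions. The difference averaged 15.8 percentage points and had the same sign in 6 of 6 libraries (exact paired permutation test, two-sided, p = 0.03125, the smallest that 6 libraries can give). After adjustment over the 6 tests of single values p was 0.094, which does not pass 0.05. Without young replicate 4 the difference averaged 18.7 points, above 0 in 5 of 5 libraries, where the smallest exact permutation p is 0.0625.

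The 64 broad regions with H3K27me3 were touched in 7.81, 10.9 and 14.1% of cases in the old libraries and in 4.69, 12.5 and 17.2% in the young, which was also above the narrow regions in each of the 6 libraries.

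A wider region can be touched more often for its width alone, so the share of bases is given as well. This share also went with width among the domains, as given below, and regions of equal width were not compared. It therefore does not part the domains from their width. H3K36me3 covered 2.76, 5.01 and 6.25% of the bases of domains in the old libraries, against 0.252, 0.679 and 0.729% of those of narrow regions. In the young libraries it covered 0.101, 2.74 and 9.86% of the bases of domains, against 0.0068, 0.288 and 1.42% of those of narrow regions. The difference averaged 3.89 percentage points over the 6 libraries, and was above 0 in each (exact paired permutation test, p = 0.03125). That p was not among the 6 tests of single values and was not adjusted. Without young replicate 4 the difference averaged 4.65 points, and 5 libraries cannot give an exact permutation p under 0.0625. In the broad regions with H3K27me3 it covered 2.62, 4.64 and 4.06% of bases in the old libraries and 0.912, 2.88 and 4.85% in the young, which was below the domains in 4 of 6 libraries and above them in young replicates 4 and 5. The difference between the 2 broad sets was not tested. The rim, the bases not under all 4 H3K4me3 lists, held more H3K36me3 than the core. This order was seen in all 6 libraries in the domains, in the narrow regions and in the broad regions with H3K27me3. For the domains, 4.02, 7.49 and 8.72% of the rim was covered in the old libraries, against 2.34, 4.20 and 5.44% of the core. In the young libraries 0.214, 3.69 and 13.4% of the rim was covered, against 0.064, 2.43 and 8.69% of the core.

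**Figure D4:**
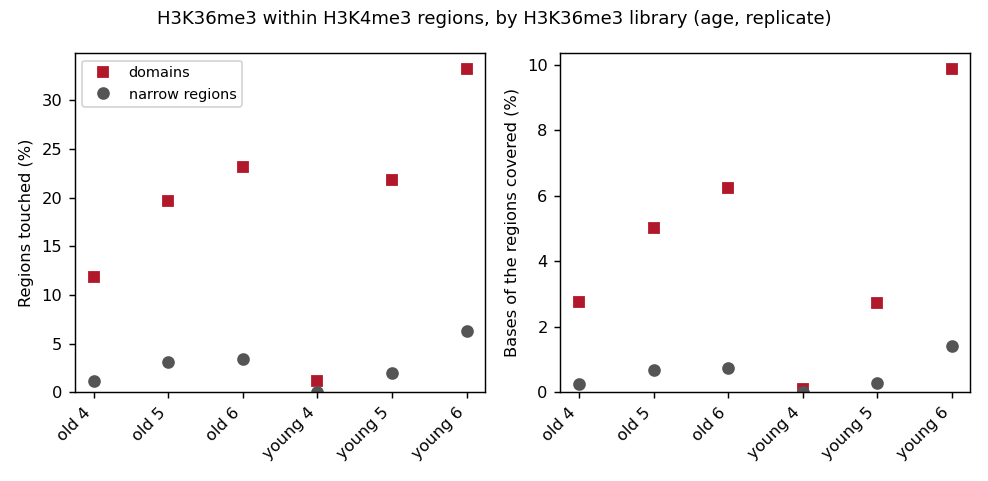
Percent of regions touched by H3K36me3 (left y axis) and percent of their bases covered (right y axis) in each H3K36me3 library (x axis, by age and replicate), for the 711 domains (squares) and the 11065 narrow regions (circles). In every library the square is above the circle, and in young replicate 4 both are close to 0.

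Within the domains, H3K36me3 went with width. In domains of 7 kb or more, 51 in number, it touched 27.5, 39.2 and 49.0% in the old libraries and 1.96, 49.0 and 64.7% in the young. In the 427 domains of 4 to 5 kb it touched 8.43, 14.5 and 15.9% in the old libraries and 0.937, 15.5 and 24.1% in the young. The share of bases had the same order in every library: in domains of 7 kb or more 6.801, 10.1 and 15.0% of bases were covered in old and 0.18, 6.63 and 20.7% in young. In those of 4 to 5 kb the shares were 1.86, 3.38 and 3.52% in old and 0.083, 1.65 and 6.17% in young. The 233 domains of 5 to 7 kb lay between these classes by both measures in all 6 libraries.

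The domain with most H3K36me3 was also the widest, chr8:97499884-97518766. H3K36me3 peaks covered 1474, 5166 and 11954 bp of it in old replicates 4, 5 and 6, and 0, 3298 and 12835 bp in young replicates 4, 5 and 6. The values ranged widely within each age and overlapped between ages. Next came chr15:101096424-101103132, 6709 bp wide, with 2087, 4451 and 4207 bp in the old libraries, and 0, 3684 and 4232 bp in the young. The third was chr11:18906952-18922156, with 0, 4257 and 5293 bp in the old libraries, and 0, 1985 and 6842 bp in the young. In chr15:67003822-67014014 the H3K36me3 peaks of the peak map lay outside both edges.

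Leaving out young replicate 4, H3K36me3 lay inside a domain in at least 3 of 5 libraries in 153 domains, or 21.5%, against 2.28% of narrow regions. It did so in all 5 libraries in 55 domains, and in none of the 5 in 444, or 62.4%, against 92.0% of narrow regions. Of the 190 domains with both old H3K4me3 values higher, 27.4% held H3K36me3 in at least 3 libraries, of the 50 with both lower 16%, and of the other 471 19.7%. Where H3K36me3 lay next to a domain it was mostly on 1 side, as it was next to narrow regions: it was on 1 side of 43.5% of domains, against 36.3% of narrow regions, and on both sides of 7.74%, against 7.08%. In at least 3 of the 5 libraries H3K36me3 covered bases within 5 kb outside the left edge alone in 154 domains. It did so outside the right edge alone in 155 domains, and outside both edges in 55. In 347 domains, or 48.8%, neither side had it, against 56.6% of narrow regions.

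H3K36me3 was also nearer to the edges of the domains. A peak lay within 5 kb outside an edge in 36.01, 47.4 and 55.7% of domains in the old libraries, against 29.9, 41.5 and 46.3% of narrow regions. In the young libraries it did so in 2.95, 50.5 and 64.7% of domains, against 2.04, 40.8 and 55.8% of narrow regions. The difference averaged 6.81 percentage points, with the same sign in 6 of 6 libraries (exact paired permutation test, two-sided, p = 0.03125, 0.094 after adjustment over 6 tests). It was 10.6 points within 2 kb and 3.78 points within 10 kb, the last with an exact permutation p of 0.0625. In old replicate 5, H3K36me3 covered 8.28% of bases in the first 500 bp outside the edge of a domain, against 2.45% for narrow regions. Farther out the order turned in all 6 libraries: in the 500 bp from 10 kb outward it covered 13.3% of bases beside domains and 15.9% beside narrow regions. In old replicate 6 the same pairs of values were 9.001 and 2.90% at the edge, and 14.4 and 17.04% from 10 kb. In young replicate 6 they were 13.3 and 4.79% at the edge, and 19.6 and 21.1% from 10 kb.

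**Figure D5:**
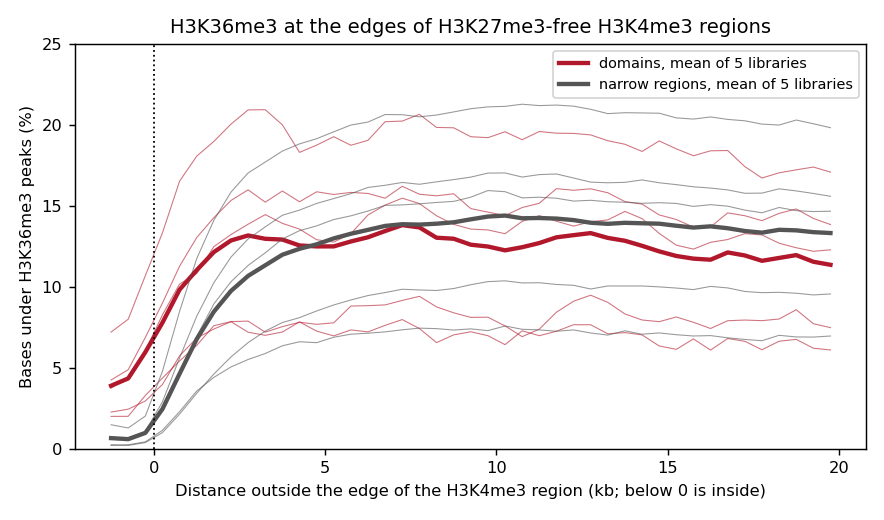
Percent of bases under H3K36me3 peaks (y axis) against distance outside the edge of H3K4me3 regions in kb (x axis, below 0 inside, bins of 500 bp), for domains (red) and narrow regions (grey). Thin lines are 5 H3K36me3 libraries, without young replicate 4, and thick lines their means. Inside the edge and up to 4 kb outside it the mean of domains is above that of narrow regions, and beyond 10 kb it is below.

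The share of domains with H3K36me3 did not separate the ages. It was 18.2 ± 5.83% in old and 18.7 ± 16.3% in young (SD, n = 3 each), a difference of -0.47 percentage points (exact two-sided permutation test, p = 1, where 0.1 is the smallest possible). Without young replicate 4 the young mean was 27.5 ± 8.06% (SD, n = 2) and the difference -9.26 points (exact permutation test, p = 0.3), while without young replicate 6 the difference was 6.77 points. Within title number 16 the share was 11.8% in old and 1.13% in young (young replicate 4), and within title number 18 it was 23.2% in old and 21.8% in young. The H3K36me3 lists covered 68.5 to 100 Mb in old and 5.90 to 138 Mb in young, and the part of list length in these shares was not tested.

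In the 5 lists used for the choice, domains lay farther from H3K27me3 than narrow regions did, a description only, since the rule removed every region that an island of the 5 lists touched. The median distance to the nearest island of any of the 5 lists was 54747 bp for domains and 30210 bp for narrow regions. An island lay within 5 kb of 31 domains, or 4.36%, and of 15.0% of narrow regions. By single list, an island lay within 5 kb of 2.11, 1.13 and 2.67% of domains in old replicates 1, 2 and 3 and of 1.27 and 2.25% in young replicates 2 and 3. For narrow regions those shares were 6.86, 5.32 and 8.09% in old and 3.91 and 7.34% in young. Young replicate 1 was not used by the rule. It had an island within 5 kb of 5.49% of domains and 2.86% of narrow regions, with median distances of 238726 and 237565 bp. Its shares include the regions that it touched, 3.52% of domains and 0.497% of narrow regions. For the other 5 lists the rule had removed such regions, so the shares are not alike in kind.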

How the data were processed

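The members and lists were chosen with earlier results of these data known, and the rule used H3K4me3 widths and H3K27me3 positions. ChIP-seq peak lists, 1 per library, were analysed as the authors deposited them. Per the submitters' processing notes, CASAVA 1.4, MACS and SICER were used, on mm9. Thresholds, controls, aligner, depth and versions of MACS and SICER were not given in the sources used here. Islands of the H3K27me3 lists had bounds on a grid of 200 bp. The score of each peak was deposited by the authors with no stated unit, and was used only to describe or filter peaks within a list. Coordinates are 1-based.

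Covered bp per merged region were computed in Python 3.11.15 with numpy 2.4.6 and pandas 2.3.3, and tested on the scale log2(bp + 200) in R 4.3.3, using limma 3.58.1 with trend and empirical Bayes. All other tests were exact permutations over libraries. Named regions were the 12 widest domains, the 5 with the largest mean difference in each direction among those whose ages did not overlap, the 3 on each side of the width limit and the 3 with most H3K36me3. Domains at the starts of listed genes could not be picked, as no mm9 annotation was used. Alternatives changed the pseudocount, filter, scaling, peak score, joining, overlap, width limit, distance and libraries. Those for the ratio of medians and for the order of the ages were chosen after seeing the data.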

Additional observations from a re-analysis of the deposited data

Results flagged for a closer look

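H3K27me3 young replicate 1, the H3K27me3 list that took no part in the choice of domains, had islands in 25 of the 711 domains, or 3.52%. This list touched 0.497% of narrow regions, and 6, or 9.38%, of the 64 broad regions with H3K27me3. It lay over 1.01% of the bases of domains, against 0.124% of those of narrow regions. An island covered at least 50% of the width in 2 domains. Of the 25, 1 held H3K36me3 in at least 3 of 5 libraries, and 2 were among the 8 domains that H3K36me3 young replicate 4 touched, the other library with title number 16 from young mice. Only 3.36 to 5.31% of the length of this list lay under any other H3K27me3 list, and whether its islands in the domains are H3K27me3 was not tested.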

How the results depend on the processing

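The median log2 change of domains was -0.02 to 0.12 with 1 H3K4me3 library left out, below 0 without old replicate 8, and the difference in total length was 1.2e-05 to 0.16. The number of domains was 2073 at a limit of 3000 bp, 284 at 5000 bp and 428 by mean covered length. With 1 H3K4me3 library left out, limma called 0 to 33 domains, and 0 in every fit on 4 libraries. Without old replicate 7, the fit with most calls, 0.578% of all tested regions were called. The other fits with 1 library left out called 0.0943 to 0.355% of all tested regions. The lists that limma tested also chose the domains, and how far that choice sets these calls was not tested. With 1 H3K4me3 library left out, the old values left were all higher in 28.3 to 65.4% of domains and all lower in 8.58 to 37.6%. All regions held by all 4 libraries gave 15.96 to 46.2% and 20.6 to 50.2%. An order of fewer values is met more easily than one of 4, so these shares are not like those from 4 libraries. With peaks at or above the median score both old values were lower in 11.0%, where all such regions gave 17.1%. The difference in peaks per domain reversed to -0.0063 with peaks under 500 bp apart joined and to -0.0014 with peaks at or above the median score, and was 0.015 to 0.27 with 1 library left out. The excess of H3K36me3 in domains was 13.6 to 18.7 points inside and 6.24 to 7.99 points within 5 kb with 1 library left out, where 5 libraries cannot give an exact p under 0.0625, and 3.78 points within 10 kb. Inside, it was 9.32 points at a width limit of 3000 bp, 23.3 at 5000 bp and 10.8 with H3K36me3 peaks at or above the median score. The difference between ages in domains with H3K36me3 was -9.26 to 6.77 points with 1 library left out, above 0 without old replicate 4 (2.74), young replicate 5 (1.08) or young replicate 6 (6.77), and the cause was not tested. Domains with H3K36me3 in at least 1 library were 37.6%, and in all 5 7.74%. The labels do not state that replicate numbers pair libraries. Old and young replicate 7 share title number 18, and old and young replicate 4 share 16. The deviations of same-numbered H3K4me3 libraries correlated at -0.022, which fixes the crossed value at 0.022. Those of same-numbered H3K36me3 libraries correlated at 0.148, 0.002 and 0.025, and those of crossed numbers at -0.099 to 0.074. These values do not decide whether the numbers pair libraries. With the replicate number as a block no call changed, with 0 domains called by limma and a smallest adjusted p of 0.43. Depth is unknown and limits every comparison of lengths between lists.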
